A study of Mus musculus with 6 samples.

Results

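Neurexins, neuroligins, cerebellins and C1ql proteins are molecules that hold the sides of a synapse together, and 9 of their genes were described here in proprioceptive sensory neurons of the newborn mouse. The members are Nrxn2, Nrxn3, Nlgn1, Nlgn2, Nlgn3, Cbln1, Cbln2, C1ql2 and C1ql3. They were chosen by gene symbol, each had 1 entry among the 36814 genes of the deposited table, and none had a value below 0. Of the 9, 6 had a mean of at least 1 RPKM (reads per kilobase of gene, scaled to the library's depth) over the 6 libraries and were tested with 10828 genes in all. The other 3, Cbln1, C1ql2 and C1ql3, lay below that level and were described only.

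Neurexins sit in the membrane of the axon terminal and reach across the cleft, where neuroligins on the receiving cell bind them. Cerebellins and C1ql proteins are secreted, and form bridges: cerebellins between neurexins and delta glutamate receptors, C1ql proteins to the adhesion receptor Bai3 and to kainate receptors. Proprioceptors make glutamatergic synapses on motor neurons and spinal interneurons, and their terminals in turn receive contacts from GABAergic interneurons, so that they are both presynaptic and postsynaptic cells.

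The samples were 3 pools of proprioceptors supplying the tibialis anterior muscle (TA), which flexes the ankle, and 3 pools supplying the gastrocnemius (GS), which extends it. All came from a Pv::YFP reporter line, in which parvalbumin neurons carry a fluorescent protein, after injection of the retrograde tracer ctb-555 into 1 of the muscles at p0. Labelled neurons were picked by hand at p1, and each pool held 25 to 30 neurons. The pools are labelled as biological replicates. No source used here says whether different animals gave them, so the p-values measure the spread between these pools. The labels enter the muscle as the tissue, but the libraries held neuronal RNA: the light neurofilament gene Nefl was at 3787 to 5028 RPKM and Etv1, a transcription factor of proprioceptors, at 202 to 323 RPKM. The 12 markers of proprioceptors and large sensory neurons summed to 7101 to 8549 RPKM in TA pools against 6853 to 9871 RPKM in GS pools, with overlap. Single markers lay apart in both directions: Pvalb, the gene of parvalbumin, at 47.8 to 93.5 RPKM in TA and 4.26 to 31.3 RPKM in GS, Spp1 at 2.78 to 6.97 and 38.5 to 72.0 RPKM, and Etv1 at 202 to 264 and 313 to 323 RPKM.

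Net reads assigned to genes came to between 7038296 and 21125960 per library. Genes with at least 1 read numbered 15530 to 16302 in the TA libraries and 12658 to 15432 in the GS libraries, and over all genes tested the median log2 fold change lay 0.24 towards TA. GS replicate 2 correlated least with the rest, at a mean of 0.728 against 0.780 to 0.834. It had the highest summed level of 9 nociceptor markers, 171 RPKM against 29.1 to 80.0 RPKM elsewhere. Most of that sum was Calca, at 133 RPKM, with P2rx3 at 22.8 RPKM and Tac1 at 0 there. Of the 9 markers, 2 were at 0 in every library. In TA replicate 3 the summed level of 9 skeletal muscle markers was 311 RPKM, against at most 5.12 RPKM in the others, and none of the 9 was at 0 throughout. The same library had the highest sums of connective tissue and vessel markers (34.9 RPKM against at most 6.26 RPKM) and of blood and immune markers (26.0 RPKM against at most 4.88 RPKM). Markers of satellite glia and Schwann cells, 11 genes, summed to 184 to 222 RPKM in TA pools against 113 to 236 RPKM in GS pools. The part of these cells in the results that follow was not tested. In bulk pools fewer cells of a type and less RNA per cell cannot be told apart.

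The deposited values are 1 number per gene, while neurexin genes make many transcripts, from separate start sites for long and short forms and by alternative splicing. At the position known as splice site 4 a short exon can be kept or skipped, which is known to affect which partners bind. Cerebellins bind neurexins that contain it, and some Lrrtm proteins those that lack it. Transcript forms are not separated in the deposited table, so their levels were not analysed here.

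The comparison of TA with GS asked whether the pools differ in these synaptic molecules by the muscle they supply. None of the 6 tested members passed limma's test at an adjusted p under 0.05, where 0.305% of all genes did (19 genes or 0.175% towards TA and 14 or 0.129% towards GS, or 11 and 17 genes with each library centred on its median). None had an unadjusted p under 0.05 either, against 10.4% of all genes (8.3% towards TA and 2.12% towards GS). In 2 of the 6 members, Nrxn3 and Nlgn1, TA and GS values were apart without overlap, which held for 16.6% of all genes tested. Nrxn3 was the higher in TA, as were 13.1% of all genes, and Nlgn1 the higher in GS, as were 3.48%. The log2 fold change, TA minus GS, was above 0 in 5 of the 6 members and below 0 in 1, with a median of 0.53, and above 0 in 7149 and below 0 in 3679 of all genes, with a median of 0.24.

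Of the neurexins, Nrxn3 (ENSMUSG00000066392, chromosome 12, 89961320 to 91573375, plus strand, mm9) was at 7.58, 9.56 and 9.21 RPKM in the TA pools (replicates 1 to 3, in this order throughout) against 6.64, 1.81 and 4.77 RPKM in the GS pools. Every TA library lay above every GS library, with the narrowest gap between TA replicate 1 and GS replicate 1. The mean was 8.78 ± 1.05 RPKM over TA and 4.41 ± 2.44 RPKM over GS (SD, n = 3), a 1.99-fold ratio, and the log2 fold change of 0.97 ± 0.46 (SE) had a limma adjusted p of 0.508. Its 95% interval ran from -0.04 to 1.98. Centring the libraries on their median made the groups overlap, and without GS replicate 2, the lowest library, the log2 fold change was 0.55.

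Nrxn2 (ENSMUSG00000033768, chromosome 19, 6418731 to 6544169, plus strand, mm9) was at 12.2, 13.8 and 10.6 RPKM in the TA pools against 5.32, 2.68 and 11.1 RPKM in the GS pools. GS replicates 1 and 2 were low, and GS replicate 3 lay within the TA range. The mean was 12.2 ± 1.58 RPKM over TA and 6.35 ± 4.28 RPKM over GS, and the log2 fold change was 1.002 ± 0.469 with a 95% interval from -0.04 to 2.04 and a limma adjusted p of 0.504. Without GS replicate 2 it was 0.59. The gene models overlapping Nrxn2, 4 in all, had mean levels of at most 0.449 RPKM.

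**Figure D1:**
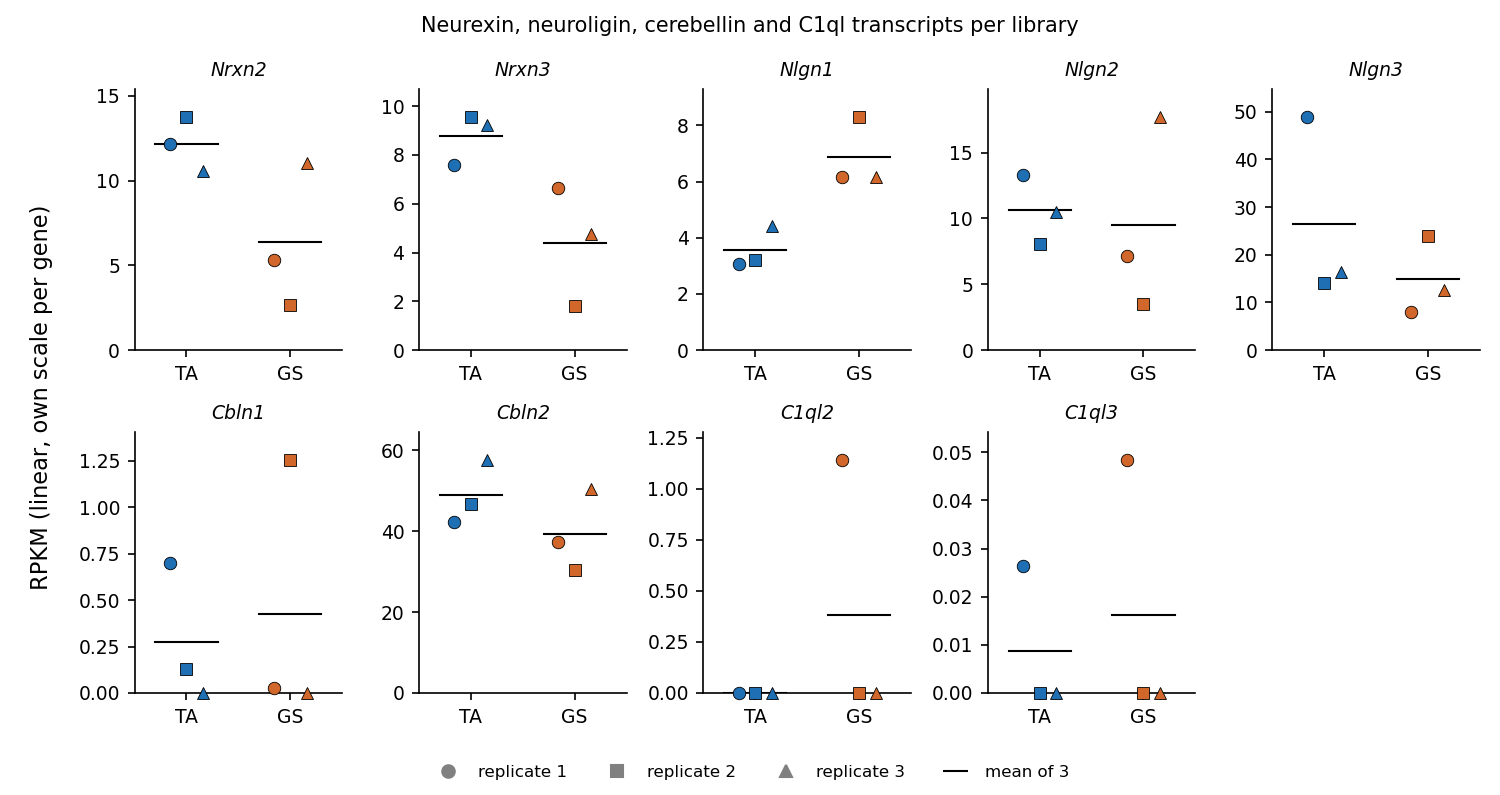
RPKM of the 9 members in each library, on a linear axis of its own for each gene; blue symbols are TA pools, orange symbols GS pools, the symbol shape gives the replicate number and the bar the mean of 3. Nrxn3 (7.58 to 9.56 RPKM in TA, 1.81 to 6.64 RPKM in GS) and Nlgn1 (3.07 to 4.42 and 6.18 to 8.30 RPKM) are the members whose groups do not overlap.

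Added together, Nrxn2 and Nrxn3 came to 19.8, 23.3 and 19.8 RPKM in the TA pools against 11.95, 4.49 and 15.8 RPKM in the GS pools, so that every TA library lay above every GS library. Their proportions did not separate the groups. Nrxn2 made up 61.6, 59.0 and 53.5% of the pair's sum in TA and 44.5, 59.7 and 69.9% in GS, with the TA values inside the GS range. A share within a library does not depend on how the library is scaled, but it does depend on the gene lengths in the table. Sums and shares, here and for the neuroligins, were computed after the values were seen and are given without a test.

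Of the neuroligins, Nlgn1, known best from excitatory synapses, was the member with higher values in GS. Nlgn1 (ENSMUSG00000063887, chromosome 3, 25330733 to 26032656, minus strand, mm9) was at 3.07, 3.22 and 4.42 RPKM in the TA pools against 6.18, 8.30 and 6.18 RPKM in the GS pools. Every GS library lay above every TA library, and the same held after centring the libraries and after quantile normalization. The mean was 3.57 ± 0.739 RPKM over TA and 6.88 ± 1.23 RPKM over GS, a 1.93-fold ratio, resting on 1024 and 1618 net reads. The log2 fold change was -0.79 ± 0.39, or -1.03 relative to all genes, with a 95% interval from -1.66 to 0.08 and a limma adjusted p of 0.530. Without each library in turn the log2 fold change of Nlgn1 was -0.92 to -0.66. Its direction could not reverse there, since the groups did not overlap.

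Nlgn2, the neuroligin of inhibitory synapses (ENSMUSG00000051790, chromosome 11, 69636624 to 69651286, minus strand, mm9), was at 13.3, 8.05 and 10.5 RPKM in the TA pools against 7.16, 3.53 and 17.7 RPKM in the GS pools. The GS libraries held both the lowest and the highest value. The log2 fold change was 0.37 ± 0.52, with a 95% interval from -0.77 to 1.51 and a limma adjusted p of 0.834, and it was -0.11 without GS replicate 2, 0.21 without TA replicate 1 and 0.91 without GS replicate 3.

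Nlgn3 is found at excitatory and inhibitory synapses, and its gene (ENSMUSG00000031302) lies on chromosome X, 98491178 to 98521302, plus strand, mm9. It was at 48.9, 14.0 and 16.3 RPKM in the TA pools against 7.93, 23.9 and 12.6 RPKM in the GS pools. TA replicate 1 stood far above the other 5 libraries, and the rest of the TA and GS values were intermixed. The log2 fold change of 0.70 ± 0.53 had a 95% interval from -0.48 to 1.88 and a limma adjusted p of 0.682, and it was 0.16 without TA replicate 1, 0.35 without GS replicate 1 and 1.09 without GS replicate 2. The annotation overlaps with that of Med12, a subunit of the Mediator complex, which was at 4.81 RPKM in TA replicate 1 and 0.459 to 7.75 RPKM in the others, and so was not at its highest there.

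Among the neuroligins the shares of Nlgn1 were without overlap, at 4.69, 12.7 and 14.1% of the summed RPKM of Nlgn1, Nlgn2 and Nlgn3 in TA and 29.0, 23.2 and 16.9% in GS. The lowest TA share was in replicate 1, where Nlgn3 was high. The gap between the groups was narrow, between TA replicate 3 and GS replicate 3, and leaving out a library could not close it. Nlgn2 made up 20.4 to 33.6% in TA and 9.89 to 48.5% in GS, and Nlgn3 52.2 to 74.9% and 34.6 to 66.9%, both with overlap. The ratio of Nrxn3 to Nlgn1 within a library, a pair singled out after its values were seen, was 2.47, 2.97 and 2.08 in TA and 1.07, 0.218 and 0.772 in GS. The ratio of Nrxn2 to Nlgn1, also chosen after its values were seen, was 2.40 to 4.27 in TA and 0.323 to 1.79 in GS, and that of Nlgn2 to Nlgn1 overlapped, at 2.38 to 4.35 and 0.425 to 2.87.

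**Figure D2:**
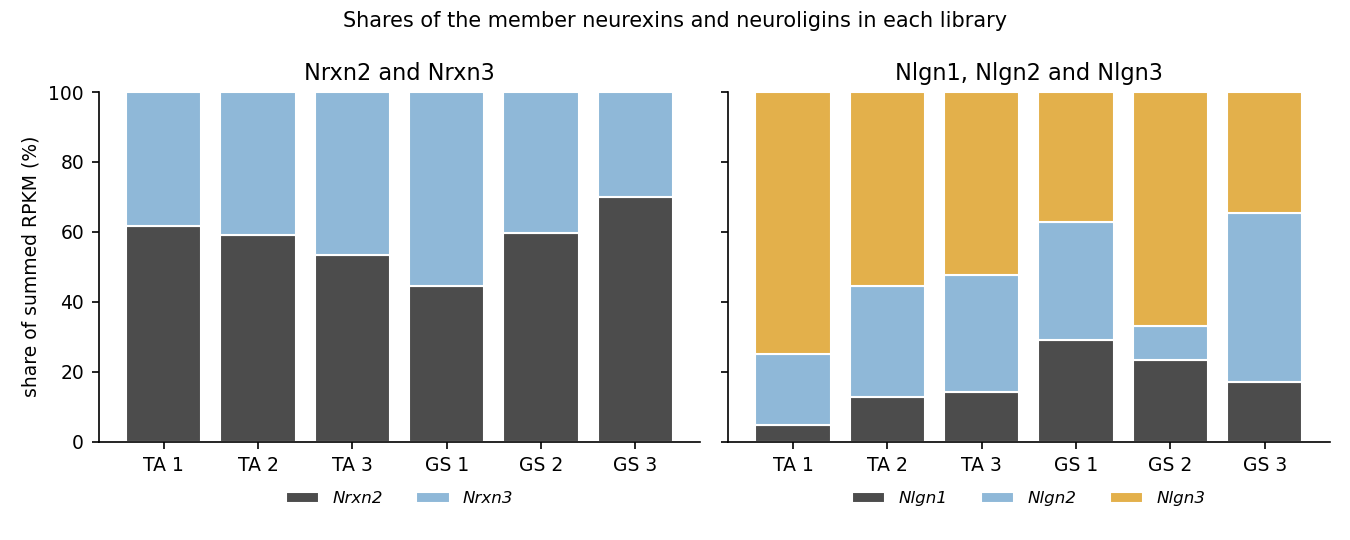
Share of each gene in the summed RPKM of Nrxn2 and Nrxn3 (left) and of Nlgn1, Nlgn2 and Nlgn3 (right), in percent, with 1 stacked bar for each library. The Nrxn2 shares overlap between TA (53.5 to 61.6%) and GS (44.5 to 69.9%), and the Nlgn1 shares do not (4.69 to 14.1% and 16.9 to 29.0%).

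Cbln2, a secreted cerebellin, had the highest mean of the 9 members, 44.1 RPKM over the 6 libraries, above 94.6% of the genes tested. Cbln2 (ENSMUSG00000024647, chromosome 18, 86880502 to 86887675, plus strand, mm9) was at 42.3, 46.7 and 57.6 RPKM in the TA pools against 37.3, 30.4 and 50.4 RPKM in the GS pools. Every library held it at a high level, and the groups overlapped through GS replicate 3. The mean was 48.9 ± 7.90 RPKM over TA and 39.3 ± 10.2 RPKM over GS. The log2 fold change of Cbln2 was 0.32 ± 0.32, with a 95% interval from -0.38 to 1.03 and a limma adjusted p of 0.764. It was 0.16 without GS replicate 2, 0.20 without TA replicate 3, 0.51 without GS replicate 3 and 0.12 with centred libraries.

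Cbln1, the founding cerebellin and the partner of delta receptors at cerebellar synapses, was at 0.699, 0.130 and 0 RPKM in the TA pools against 0.0256, 1.25 and 0 RPKM in the GS pools. It rested on 29 net reads in TA and 59 in GS, most of them from TA replicate 1 and GS replicate 2. C1ql2 had 38 net reads in GS replicate 1, or 1.14 RPKM, and was listed at 0 in the other 5 libraries. C1ql3 had 2 net reads in GS replicate 1 and 1 in TA replicate 1, and was listed at 0 elsewhere. For these genes 3 net reads, taken here as the least that can be read as a level, were worth 0.0367 to 0.114 RPKM depending on the library and the gene, in counting error only. A 0 in this table may not be a true 0, since all 38 mitochondrial genes were also listed at 0 in every library. Whether that bears on the 0 values of these 3 genes was not tested. The TA and GS values overlapped for all 3 genes, and of the secreted members only Cbln2 was found at more than 1.25 RPKM in any library.

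Ordered by mean level over the 6 libraries, a comparison between genes per length, the tested members ran from Cbln2 (44.1 RPKM) through Nlgn3 (20.6 RPKM), Nlgn2 (10.05 RPKM), Nrxn2 (9.26 RPKM) and Nrxn3 (6.59 RPKM) to Nlgn1 (5.23 RPKM). Cbln2 was first in 5 of the 6 libraries, and Nlgn3 was above it in TA replicate 1. Nlgn1 was last in all 3 TA libraries and in none of the GS libraries. Each pair of neighbours changed places between libraries, so that their order in the mean is within the spread.

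By the rule for likeness, the genes closest to Cbln2 in log2(RPKM + 1) over the 6 libraries were Kbtbd11, Gm5763 and Arih2, with Pearson correlations of 0.995, 0.986 and 0.986. Those closest to Nrxn2, the tested member with the largest absolute log2 fold change, were Tmem150b, Ppp4r1 and Gm11189, at 0.995, 0.992 and 0.989. These are the highest of 10827 correlations over 6 points that share the libraries' depth, and they are given as a description. Among the members, Nrxn2 and Nrxn3 had a correlation of 0.825, and Nlgn1 correlated negatively with both, at -0.843 and -0.835. Cbln2 correlated at 0.837 with Nrxn2, 0.735 with Nrxn3 and 0.764 with Nlgn2, all 4 being lowest in GS replicate 2. Nlgn3 followed none of them, with correlations of -0.372 to 0.102 with the other 5.

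Partner genes were counted in 7 lists. Of 72 genes, 71 were listed and 53 tested, and 1 was called, Khdrbs2, higher in TA. Values were apart without overlap in 14 partner genes towards TA and 4 towards GS, 34.0% of the 53 against 16.6% of all genes. Their median log2 fold change was 0.36, beside 0.24 over all genes. The lists were chosen with earlier results of these data known. The shares, here and by list below, are therefore a description and no test of the partner genes as a set.

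Khdrbs2, also called SLM1, is an RNA-binding protein of the STAR family, known to repress inclusion of the neurexin exon at splice site 4. It was at 7.28, 4.02 and 7.90 RPKM in the TA pools against 0, 0.0746 and 0.261 RPKM in the GS pools, where it rested on 8 net reads in all against 577 in TA. The TA libraries were far above the GS libraries. The log2 fold change was 2.70 ± 0.46, at a limma adjusted p of 0.0478. The call was lost on leaving out any 1 library (limma adjusted p of 0.0571 to 0.368) and with centred libraries (0.0616), and was kept in 2 of 14 alternatives.

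Khdrbs3 (SLM2), a relative with the same known target, was at 4.44, 5.96 and 5.21 RPKM in the TA pools against 0.349, 0.376 and 0.470 RPKM in the GS pools, and its limma adjusted p was 0.0953. Khdrbs1 (SAM68), the third of the family, was at 3.10 to 5.40 RPKM in TA pools against 5.05 to 6.66 RPKM in GS pools, with overlap.

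**Figure D3:**
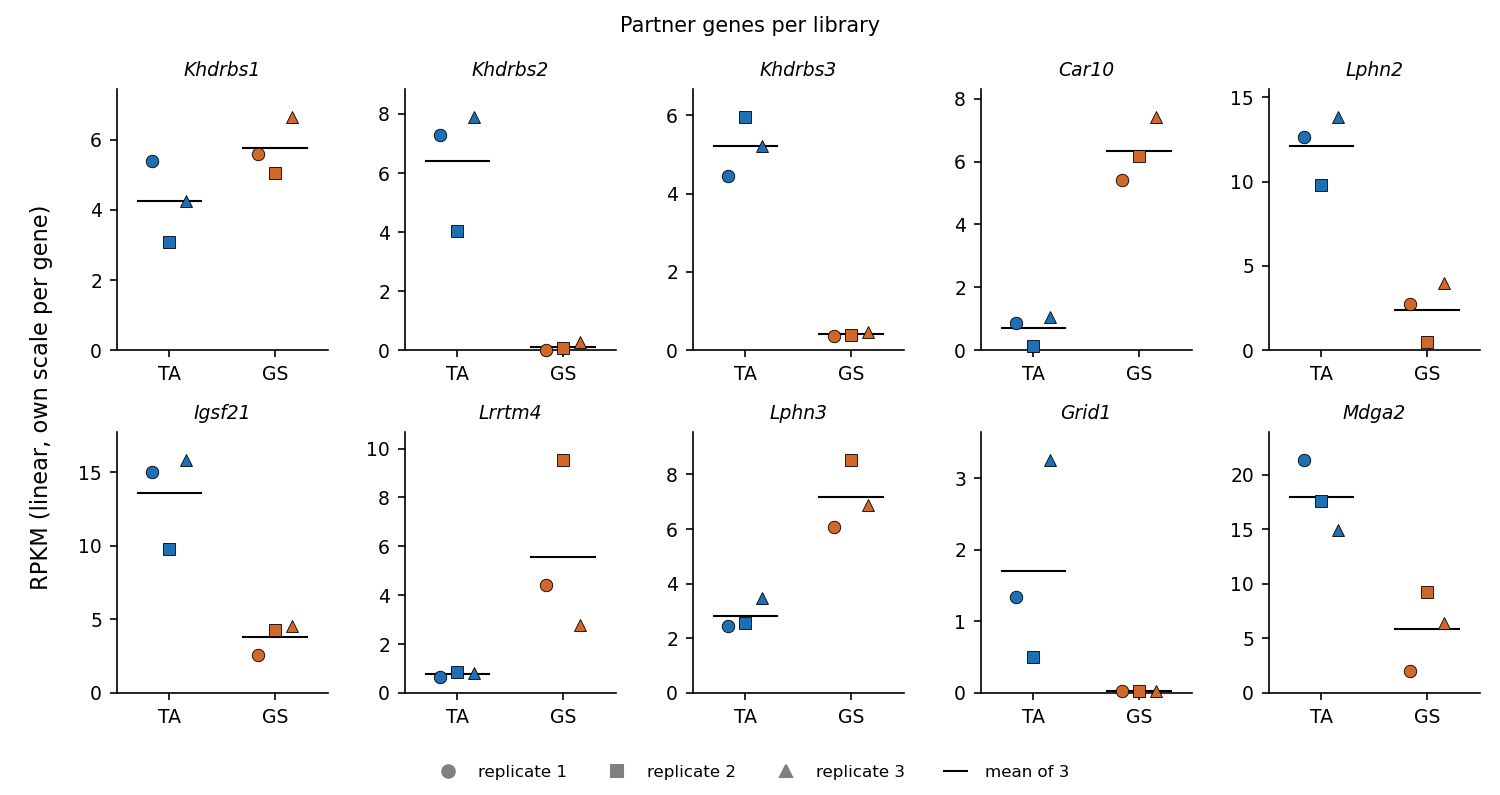
RPKM of 10 partner genes in each library, on a linear axis of its own for each gene; blue symbols are TA pools, orange symbols GS pools, the symbol shape gives the replicate number and the bar the mean of 3. The Khdrbs2 values are 4.02 to 7.90 RPKM in TA pools against 0 to 0.261 RPKM in GS pools, and Car10 has 0.143 to 1.06 RPKM in TA pools against 5.41 to 7.42 RPKM in GS pools; Khdrbs3, Igsf21, Lrrtm4, Lphn3 and Grid1 were added after their values were seen.

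Among 15 tested transmembrane and secreted partners of neurexins none was called, 3 had an unadjusted p under 0.05 in each direction (8.3% of all genes towards TA and 2.12% towards GS), and TA and GS were without overlap in 4 towards TA and 3 towards GS (13.1% and 3.48% of all genes). Car10, a catalytically inactive carbonic anhydrase that binds neurexins in the secretory pathway, was at 0.876, 0.143 and 1.06 RPKM in the TA pools against 5.41, 6.16 and 7.42 RPKM in the GS pools. Its log2 fold change was -2.15 ± 0.45 with a limma adjusted p of 0.116, which became 0.0451 after quantile normalization. Lphn2, a latrophilin, was at 12.6, 9.82 and 13.8 RPKM in the TA pools against 2.72, 0.505 and 3.98 RPKM in the GS pools, with an adjusted p of 0.174.

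Of genes named after their values were seen, Igsf21, a partner of Nrxn2 at inhibitory synapses, was at 9.82 to 15.9 RPKM in TA pools against 2.61 to 4.57 RPKM in GS pools (adjusted p of 0.205, limma). Lrrtm4, a postsynaptic leucine-rich repeat protein, was at 0.671 to 0.852 and 2.79 to 9.54 RPKM (0.281), and the latrophilin Lphn3 at 2.46 to 3.47 and 6.08 to 8.53 RPKM (0.399). Lrrtm4 and Lphn3 overlap gene models with means of 7.85 and 4.52 RPKM. The most abundant of these transmembrane and secreted partners were the calsyntenins Clstn1, at 40.8 ± 12.04 RPKM over TA and 39.5 ± 12.7 RPKM over GS, and Clstn2, at 32.8 ± 7.47 and 19.8 ± 1.61 RPKM.

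None of the 5 tested receptors of cerebellins and C1ql proteins was called. Dcc, a netrin receptor that also binds Cbln4, was at 3.18 ± 0.547 RPKM over TA and 1.82 ± 0.139 RPKM over GS without overlap, with a limma adjusted p of 0.679. Bai3, the receptor of C1ql proteins, was at 2.18 ± 0.978 and 3.42 ± 1.25 RPKM, and Neo1, a relative of Dcc, at 7.98 ± 3.88 and 9.87 ± 2.43 RPKM. The delta receptors lay below the filter and were not tested. Of these Grid1, named after its values were seen, was at 1.34, 0.506 and 3.26 RPKM in the TA pools against 0.0300, 0.0253 and 0.0296 RPKM in the GS pools, resting on 808 and 9 net reads.

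Mdga1 and Mdga2 block the binding of neurexins to neuroligins, and neither was called. Mdga2 was at 21.4, 17.6 and 14.9 RPKM in the TA pools against 2.03, 9.26 and 6.38 RPKM in the GS pools, without overlap (limma adjusted p of 0.301), and Mdga1 at 35.7 ± 2.63 RPKM over TA and 30.4 ± 17.2 RPKM over GS. None of 16 tested genes in the list of scaffolds was called, and 4 (25%) were without overlap, all towards TA, where 13.1% of all genes were. Among these 4 was Cntnap4, which is a contactin-associated membrane protein and not an intracellular one. It was at 10.3, 9.85 and 10.2 RPKM in the TA pools against 0.210, 7.39 and 0.170 RPKM in the GS pools. Its limma adjusted p was 0.322, or 0.0183 without GS replicate 2. The PDZ protein Pick1 was at 3.87 ± 0.776 and 0.995 ± 0.640 RPKM, and the most abundant, the adaptors Apba1 (Mint1) and Lin7b, at 64.2 ± 12.3 and 46.8 ± 14.1 RPKM and at 26.7 ± 10.3 and 29.8 ± 10.02 RPKM. None of 11 tested genes of other presynaptic organizers was called. Slitrk3, a partner of receptor phosphatases at inhibitory synapses, was at 19.1, 19.9 and 34.6 RPKM in the TA pools against 41.6, 239 and 40.8 RPKM in the GS pools, with GS replicate 2 far above the others (limma adjusted p of 0.413). Ntng2, a netrin-G, was at 7.52 ± 4.43 and 1.30 ± 1.75 RPKM, and the receptor phosphatase Ptprs at 44.0 ± 6.12 and 27.9 ± 5.97 RPKM.

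Beyond the members, 4 other genes of these families were read, and the 1 tested, Cbln3, was not called. Cbln3 was at 7.90 RPKM in GS replicate 1 and at most 0.177 RPKM in the other libraries. C1ql1 was listed at 0 throughout, Cbln4 had 2 net reads in TA replicate 2, and C1ql4 had 3 in GS replicate 3. The symbol Nlgn4l was not matched.

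**Figure D4:**
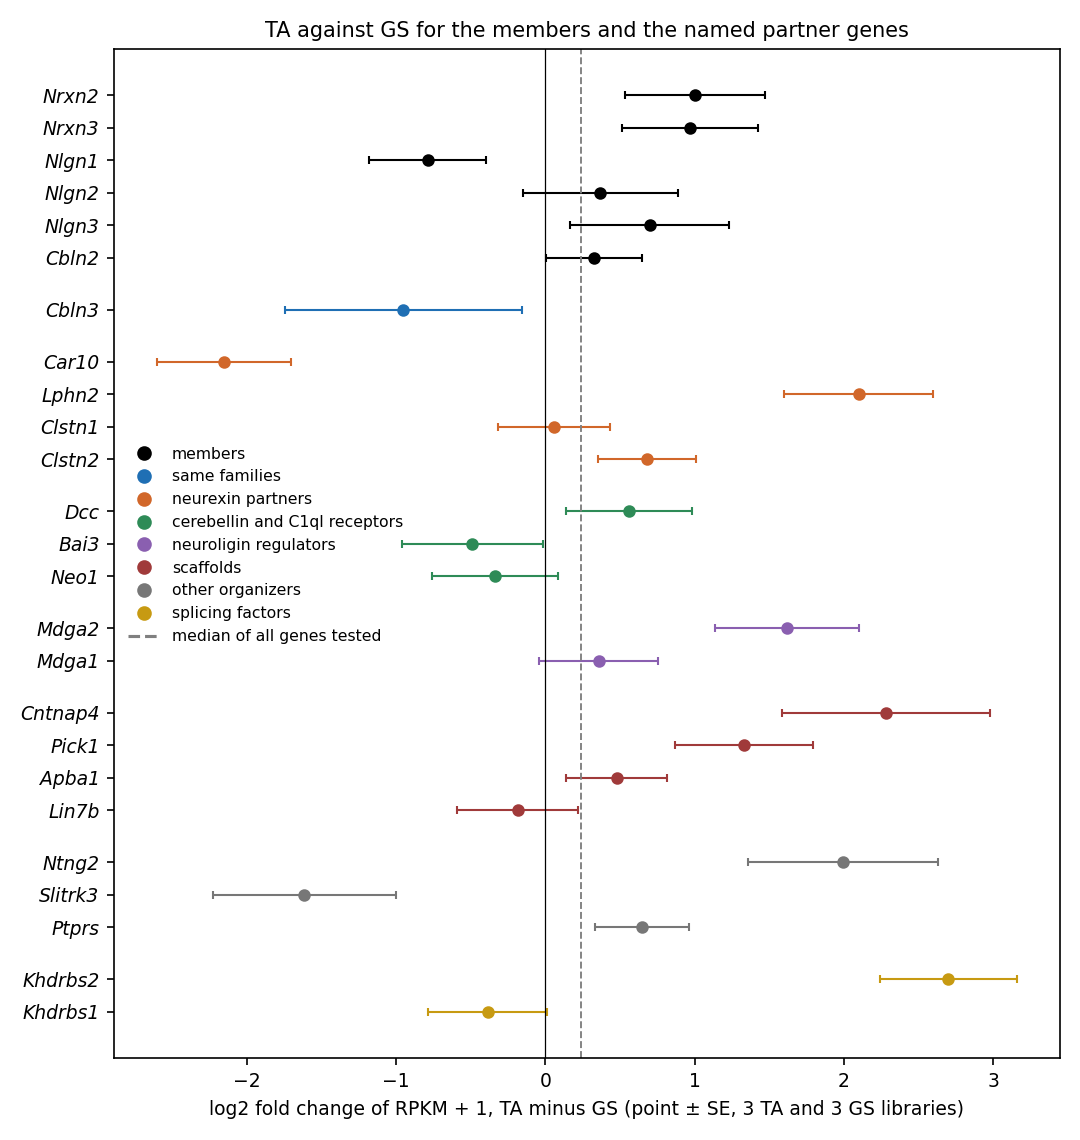
Log2 fold change of RPKM + 1, TA minus GS, for the 6 tested members (black) and the partner genes named by rule (coloured by list), as points with the SE over 3 TA and 3 GS libraries; the dashed line is the median of all genes tested, 0.24. The members run from -0.79 (Nlgn1) to 1.002 (Nrxn2), and Khdrbs2, at 2.70, is the plotted gene that passed the test.

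The authors' deposited tables of genes higher in 1 muscle were searched for the same genes. No member was among the 395 genes of the TA table or the 334 of the GS table. Of the partner genes, 4 were in the TA table (Grid1, Khdrbs2, Khdrbs3 and Hspg2) and 5 in the GS table (Cbln3, Car10, Lrrtm4, Lrrtm3 and Slitrk3). In the authors' deposited table Grid1 had a ratio of 63.6 in favour of TA with an adjusted p of 0.0575, and Slitrk3 a ratio of 5.08 in favour of GS with an adjusted p of 0.0135. Of these 9 genes only Slitrk3 had an authors' adjusted p under 0.05. The authors' adjusted p was 0.197 for Khdrbs2, 0.848 for Khdrbs3, 0.467 for Hspg2 and 0.124 for Lrrtm4. Slitrk3 was at 239 RPKM in GS replicate 2 and at most 41.6 RPKM in the other libraries. The replicate libraries showed 3 of these 9 genes to be high in 1 library alone: Cbln3 in GS replicate 1, Lrrtm3 in GS replicate 2 (9.77 RPKM, against 0.0418 to 1.68 RPKM elsewhere) and Hspg2 in TA replicate 3 (2.92 RPKM, against 0 to 0.457 RPKM), the library with the highest sums of muscle, connective tissue and blood markers.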

How the data were processed

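RNA of 3 TA and 3 GS pools was extracted with PicoPure, amplified with Nugen Ovation and sequenced in pairs on an Illumina HiSeq, per the labels' protocols. Bowtie 0.12.9, DESeq and the build mm9 are named in the submitters' processing notes. No source used here names the counting program, its annotation or its use of strand. The authors deposited whole-number reads and RPKM for each gene and library, per the file headers, and since some fall below 0 these deposited values are entered here as a score and the reads called net. The authors' 2 lists give, per the file headers, 1 signal (scaled reads) and 1 RPKM for each muscle, their fold ratio (GS divided by TA) and p-values.

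A value below 0 in any library removed 683 genes, 1 entry per symbol was kept (highest mean), and genes with a mean of at least 1 RPKM were tested. TA and GS were compared on log2(RPKM + 1) with limma 3.58.1 in R 4.3.3 (group only, trend, Benjamini-Hochberg). Log2 fold changes are TA minus GS, and understate the change of low genes. Intervals are limma's, at 95%. The steps were tested on simulated independent values, with planted changes larger than that of any tested member. That test cannot show how often changes of the members' size would be found. Alternatives were the pseudocount, the filter, values below 0, library scaling, the variance model, a replicate block and leaving out each library.

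The members and partner lists were chosen with earlier results of these data known. All members were named. From each partner list the genes past the threshold were named, or, where there was none, the 2 of lowest unadjusted p, with the 2 of highest mean. Likeness was the Pearson correlation over 6 libraries, 3 genes each for the member of highest mean and that of largest absolute log2 fold change. Symbols are the table's. Gene coordinates are in mm9 with the last base as end. One gene of the partner lists is not reported here. An exact permutation test of 3 against 3 cannot go below p = 0.10 and was not used.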

Additional observations from a re-analysis of the deposited data

How the results depend on the processing

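No member was called under any of the 15 alternatives, and in 89 of 90 refits of the 6 tested members the direction was that of the main analysis. The exception was Nlgn2 without GS replicate 2 (-0.11, in a range up to 0.91 without 1 replicate). Many of these refits could not differ in direction. The filters, values below 0 set to 0, limma without trend and the replicate block leave a member's log2 fold change as it was. For Nrxn3 and Nlgn1, whose groups do not overlap, leaving out 1 library cannot reverse it either. Members with an unadjusted p under 0.05 numbered at most 3, with limma voom on net reads. Over all genes, 33 calls became 13 with a pseudocount of 0.1, 17 with a mean of at least 5 RPKM, 12 with limma voom, and 2 to 29 without 1 replicate. With no filter limma called 0 genes, where 1501 had an unadjusted p under 0.05. The partner genes called, 1 at first, numbered 0 with a pseudocount of 0.1, no filter, centred libraries and limma voom, and 0 to 1 without 1 replicate. With a mean of at least 5 RPKM the number was also 0, but Khdrbs2 was not tested there. After quantile normalization the 1 called was Car10 in place of Khdrbs2. The members without overlap, 2 at first, were 1 with centred libraries and 1 with quantile normalization. They were 2 to 5 without 1 replicate, where the number cannot fall. The cause was not tested.

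With the replicate number as a block 16 genes and 0 partner genes were called. Same-numbered libraries had correlations of deviations of -0.07, -0.02 and -0.14, against -0.04 to 0.13 for libraries of different number. So few values cannot show whether the numbers pair the libraries.

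Among partner genes, Clstn1 (0.06) had -0.15 with centred libraries, -0.061 with quantile normalization, -0.0098 with limma voom, and -0.24 to 0.28 without 1 replicate, below 0 without TA replicate 1 or GS replicate 2. Lin7b (-0.18) had -0.38 to 0.18 without 1 replicate, above 0 without TA replicate 2 or GS replicate 2. Lrrtm3 (-0.32) had 0.40 with a pseudocount of 0.1 and 0.43 with limma voom. Pools of 25 to 30 neurons and 3 libraries per group limit what can be told apart: the members' intervals include 0 and differences of up to 2.04 on the log2 scale.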
